A study of Mus musculus with 8 samples.

Results

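Cytoplasmic RNA of heat-shocked fibroblasts was set against that of unstressed ones. The cells were mouse embryonic fibroblasts, a cultured connective tissue cell, of the C57BL/6J strain. Both groups had the same genotype label, TSC2+/+. The first group had no heat shock. The second was heated to 42 °C for 1 h and then kept at 37 °C for 3 h, so that the RNA was taken during recovery and not at the end of the heat. Cells were opened with detergent, the cytoplasm was taken as the supernatant over sucrose, and short fragments of its RNA were cut from a gel and sequenced. Each group was a single library (n = 1), so the differences below have no replicate check and were not tested, and they describe these libraries only. The genes described are those listed in at least 1 of the 2 cytoplasmic libraries, 22386 of the 28785 genes listed in any library used here. Of these, 6650 (29.7%) had at least 100 reads over both libraries and were kept for the comparison. There were 29 genes at 100 reads, just inside this minimum, and 32 at 99 reads, just outside it. The same conditions were also sequenced from the chromatin pellet, again with 1 library each, and those values are given beside the cytoplasmic ones.

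Heated cells activate heat shock factor HSF1, which binds inverted repeats of a short GAA-containing unit in promoters and drives genes of molecular chaperones, proteins that keep others folded. HSP70 proteins bind exposed stretches of unfolded proteins and work with J-domain proteins, which bring them clients, and with HSP110 and BAG proteins, which exchange their nucleotide. Replication-dependent histone mRNAs belong to a different class of RNA. They end in a stem-loop in place of a poly(A) tail, are made during DNA synthesis and are degraded when it stops.

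The files identify genes by Ensembl identifier without names. Names were assigned from known identifiers and kept where the gene span implied by the RPKM values matched the RefSeq span of that symbol. For Egr1, Atf3, Hsp90aa1, Cryab, H1f2, Hspa5, Nr4a1, Egr3, Actb, H3f3b and Slbp the spans differed and the name rests on the identifier alone. RPKM here is reads per kilobase of the whole gene span, introns included, and scaled to the reads of the library, so levels were compared only between libraries for the same gene. Intervals are exact 95% Clopper-Pearson intervals on the reads and cover counting error only.

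Most genes had a lower cytoplasmic RPKM after heat shock, and the size of that shift depends on the scale. The unstressed library held 8292312 reads and the heat shock library 11131382. The median log2 ratio over the 6650 genes was -0.60 on the deposited scale, with 354 genes at least 2-fold higher (5.32%) and 1258 at least 2-fold lower (18.9%). With the median set to 0, 537 genes were at least 2-fold higher (8.08%) and 194 at least 2-fold lower (2.92%), so that higher genes were 22.0% of all genes past 2-fold on the first scale but 73.5% on the second. The 10 genes with the most reads held most of each library, and the reads outside them were 24.1% of the unstressed library and 20.2% of the heat shock library. The first of them, Rn18s-rs5, is by name a relative of 18S ribosomal RNA, and it alone took 44.6% and 47.4% of reads. Ratios below are on the deposited scale, on which the middle gene sits at -0.60 and not at 0. In these bulk samples, fewer cells with an RNA and less of it per cell cannot be told apart.

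**Figure D1:**
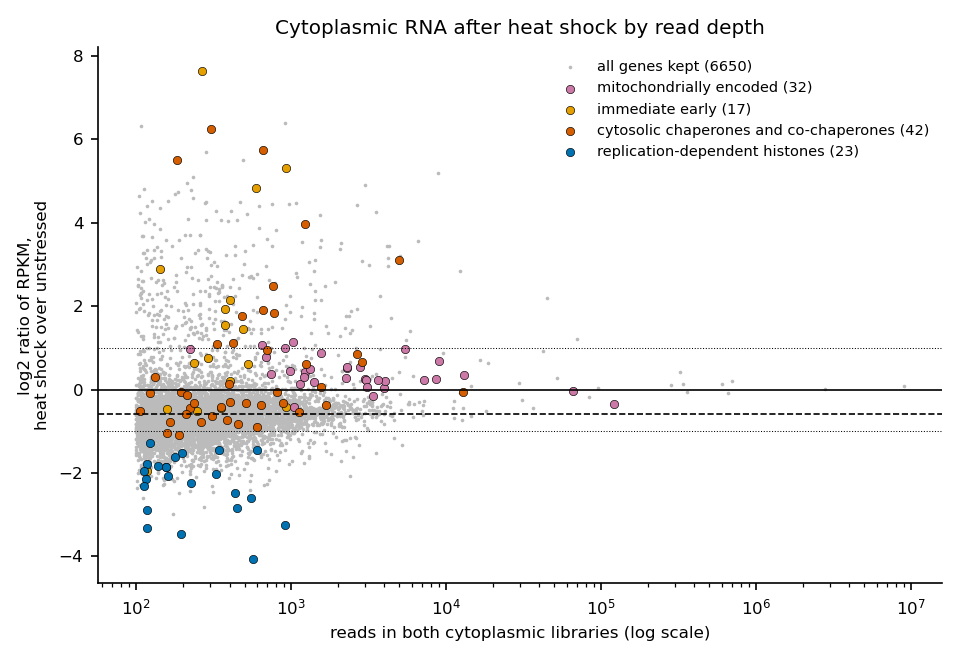
Each point is 1 gene, with its reads over both cytoplasmic libraries on a log axis and its log2 ratio of RPKM, heat shock over unstressed, on the vertical axis. The dashed line is the median of all 6650 genes, -0.60, dotted lines mark 2-fold, and genes with 0 reads in the unstressed library stand at their lower bound. Chaperone and immediate early genes are among the highest points but also lie near the dashed line, and the 23 histone genes lie below the lower 2-fold line.

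Heat-inducible cytosolic chaperones were among the highest genes, and Hspa1b, an inducible HSP70, ranked first among those with a name. In the 4 lists of cytosolic chaperones and co-chaperones, with 61 genes, 54 could be named and 42 were kept. Of these 42, 11 had at least 2-fold higher values (26.2%, against 5.32% of all genes), 2 at least 2-fold lower and 29 in between. Their median log2 ratio was -0.08, and 34 of the 42 lay above the median of all genes. With that median set to 0, 15 were at least 2-fold higher and 0 lower. The lists hold constitutive members as well as heat-inducible ones.

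The inducible HSP70 genes Hspa1a and Hspa1b had no read without stress. Hspa1b was listed at 0 RPKM (0 reads) without stress and 9.74 RPKM (304 reads) after heat shock. It was 75.5-fold higher when the unstressed library is set at a floor of 3 reads, and the lower end of its interval was 61.0-fold. Hspa1a was likewise at 0 reads without stress, and it reached 5.54 RPKM (183 reads). With the same floor it was 45.4-fold higher, and the lower end of its interval was 36.6-fold. These neighbouring genes on chromosome 17 encode nearly the same protein, and how reads that match both were assigned is not given in the sources used here. Summed, they had 0 and 487 reads, at least 121-fold more of the library, with 1 floor for the pair. In chromatin the pair went from 6 to 753 reads, 118-fold (53.9 to 322).

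The stretches before the start sites of the 5 chaperones with the largest ratios are shown, since HSF1 is known to bind promoters of such genes. Each is the 250 bases upstream of the first start in the RefSeq table on GRCm38.p6, 5′ to 3′ on the gene's strand, with every GAANNTTC or TTCNNGAA in capitals, which are 2 inverted units next to each other. Both motifs read the same on either strand, and they can overlap each other. Hspa1a lies at chr17:34972157-34972406 and Hspa1b at chr17:34959239-34959488, both on the minus strand. Hspb1 lies at chr5:135887669-135887918 and Dnajb1 at chr8:83607925-83608174, both on the plus strand, and Hsph1 at chr5:149636337-149636586 on the minus strand.
Hspa1a: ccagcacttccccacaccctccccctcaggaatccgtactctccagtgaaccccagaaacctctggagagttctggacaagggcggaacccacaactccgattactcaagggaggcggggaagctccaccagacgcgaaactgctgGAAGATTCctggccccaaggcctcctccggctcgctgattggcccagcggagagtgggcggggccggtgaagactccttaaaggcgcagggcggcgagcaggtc
Hspa1b: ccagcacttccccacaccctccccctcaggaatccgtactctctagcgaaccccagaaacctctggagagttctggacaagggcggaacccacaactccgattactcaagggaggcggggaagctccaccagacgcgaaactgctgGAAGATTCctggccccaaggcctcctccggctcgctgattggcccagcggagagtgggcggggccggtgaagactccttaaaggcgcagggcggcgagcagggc
Hspb1: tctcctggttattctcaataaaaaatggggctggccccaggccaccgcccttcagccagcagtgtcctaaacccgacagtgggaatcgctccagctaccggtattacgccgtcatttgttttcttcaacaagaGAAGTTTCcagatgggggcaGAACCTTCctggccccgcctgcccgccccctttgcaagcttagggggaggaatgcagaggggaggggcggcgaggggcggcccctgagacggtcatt
Dnajb1: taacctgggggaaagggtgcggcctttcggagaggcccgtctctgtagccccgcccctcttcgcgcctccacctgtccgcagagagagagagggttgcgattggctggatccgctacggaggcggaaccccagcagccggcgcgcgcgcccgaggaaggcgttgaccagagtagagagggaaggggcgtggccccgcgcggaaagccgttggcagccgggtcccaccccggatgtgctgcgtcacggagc
Hsph1: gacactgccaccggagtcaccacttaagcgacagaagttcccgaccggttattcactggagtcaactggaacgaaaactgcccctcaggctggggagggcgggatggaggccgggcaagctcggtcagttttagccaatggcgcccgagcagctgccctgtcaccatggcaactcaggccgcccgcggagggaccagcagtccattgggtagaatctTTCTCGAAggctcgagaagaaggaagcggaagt
The Hspa1a and Hspa1b stretches were identical at 247 of 250 bases, and each held 1 motif, which began 104 bases before the start. Hspb1 held 2 motifs, beginning 117 and 97 bases before the start, and Hsph1 held 1, beginning 33 bases before it. Dnajb1 held 0. For Dnajb1 and Hsph1 the table has 2 starts, of which the first listed was used. The RefSeq span of Hsph1 ends at 149636498. Part of its stretch, the motif included, therefore lies inside the gene, downstream of that outer end. Over all 32851 promoters of the table, 12.8% held at least 1 such motif in the same 250 bases. Among kept members of the chaperone lists with a promoter in the table, the motif was in 5 of 10 genes at least 2-fold higher and in 3 of 23 others, and 9 kept members had no entry. Among the first 15 higher protein-coding genes named below it was in 3 of the 11 with an entry, and among the first 15 lower ones in 0 of 14. These 3 were Hspa1a, Hspa1b and Hspb1, shown above, and none of the other higher genes with an entry held it. The nearly identical Hspa1a and Hspa1b stretches count as 2 genes here and among the 5 of 10. Overlapping pairs of the motifs, which join 3 such units in a row, were in 0 of the 33 kept chaperones with an entry and in 0.466% of all promoters. A match describes the letters in this window and not a bound site.

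Hspb1, which encodes the small heat shock protein HSP27 that holds unfolded proteins in solution, was listed at 0.660 RPKM in the unstressed library (9 reads) and 35.4 after heat shock (649 reads), and was 53.7-fold higher (interval 28.1 to 118). Dnajb1, the J-domain partner of inducible HSP70, was listed at 1.81 RPKM in the unstressed library (56 reads) and 28.3 after heat shock (1176 reads), and was 15.6-fold higher (interval 11.96 to 20.84). Hsph1, the HSP110 protein that exchanges the nucleotide of HSP70, was listed at 2.16 RPKM in the unstressed library (396 reads) and 18.6 after heat shock (4565 reads), and was 8.59-fold higher (interval 7.75 to 9.54). For these genes the lower end of the interval stayed far above 2-fold. Bag3, a co-chaperone that links HSP70 to autophagy, went from 0.464 to 2.61 RPKM and was 5.61-fold higher (interval 4.50 to 7.07). Hspa4l, a relative of HSP110, was 3.40-fold higher (interval 2.69 to 4.34) at 87 and 397 reads without and after heat shock. The J-domain genes Dnajb4 and Dnaja1 were 3.72-fold and 3.55-fold higher, at 110 and 550 reads and 134 and 638 reads. Chordc1, an HSP90 partner, was 2.17-fold higher (interval 1.74 to 2.73), and Cryab, the small heat shock protein alphaB-crystallin, was 2.15-fold higher (interval 1.67 to 2.78). The intervals of both reached below 2-fold.

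Chaperones that cells make without stress differed less. Hspa8, the constitutive HSP70, was listed at 26.4 RPKM in the unstressed library (923 reads) and 41.7 after heat shock (1957 reads), 1.58-fold higher (interval 1.46 to 1.71). Hsp90aa1, the inducible HSP90, was 1.82-fold higher (interval 1.67 to 1.98), at 771 and 1882 reads. Hsp90ab1, the constitutive HSP90, was listed at 122 RPKM in the unstressed library (5577 reads) and 118 after heat shock (7249 reads), a ratio of 0.968 (interval 0.935 to 1.00). All 3 lay above the median ratio of all genes, which was 0.662. The co-chaperones Stip1 and Ahsa1 had ratios of 1.05 and 1.09 with intervals that held 1. The members at least 2-fold lower were Dnajb12, an ER membrane J-domain protein, at 2.11-fold and Bag4 at 2.05-fold, and with the median set to 0 neither passed 2-fold. Members outside the comparison for low reads included Hspa1l (0 and 1 reads), Hspa2 (18 and 17) and Dnaja4 (11 and 36).

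No chaperone of the chaperonin, mitochondrial or endoplasmic reticulum lists passed 2-fold on the deposited scale. Relative to the median of all genes, the mitochondrial Hspe1 was past 2-fold higher (log2 1.11). Of 8 subunits of the cytosolic chaperonin, which folds actin and tubulin, ratios ran from 0.675 (Tcp1) to 0.861 (Cct4). Of the 9 mitochondrial chaperones kept, Hspe1 and Hspd1, which form the lid and barrel of the mitochondrial chaperonin, were the highest at 1.43-fold (interval 1.253 to 1.639) and 1.15-fold (1.07 to 1.24), while Hspa9, the mitochondrial HSP70, was 1.58-fold lower (interval 1.48 to 1.69). Among 17 kept chaperones of the endoplasmic reticulum, Hspa5 (BiP), its HSP70, at 1584 and 1725 reads, had a ratio of 0.811. Serpinh1, the collagen chaperone HSP47 and a heat shock gene, was the highest of them at 1.00. The list median was -0.32 on the log2 scale, 0.28 above all genes. The heat shock factor genes Hsf1 and Hsf2 had ratios of 0.557 and 0.685.

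In chromatin most cytosolic chaperones had larger ratios than in cytoplasm. All 42 kept genes were also kept in chromatin, and 40 of them had a larger ratio there than in cytoplasm (95.2%), against 75.6% of all 6482 genes kept in both fractions. The median difference of the log2 ratios, chromatin minus cytoplasm, was 0.99 for the chaperones and 0.53 for all genes. Hsph1 was 59.8-fold (55.6 to 64.5) higher in chromatin and 8.59-fold in cytoplasm. Hsp90ab1 was 6.41-fold (6.11 to 6.72) higher in chromatin with a cytoplasmic ratio of 0.968, and Hspa8 was 8.41-fold (7.84 to 9.03) higher in chromatin and 1.58-fold in cytoplasm. The fractions are separate libraries, each scaled to its own total, so these differences hold only on that scale.

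**Figure D2:**
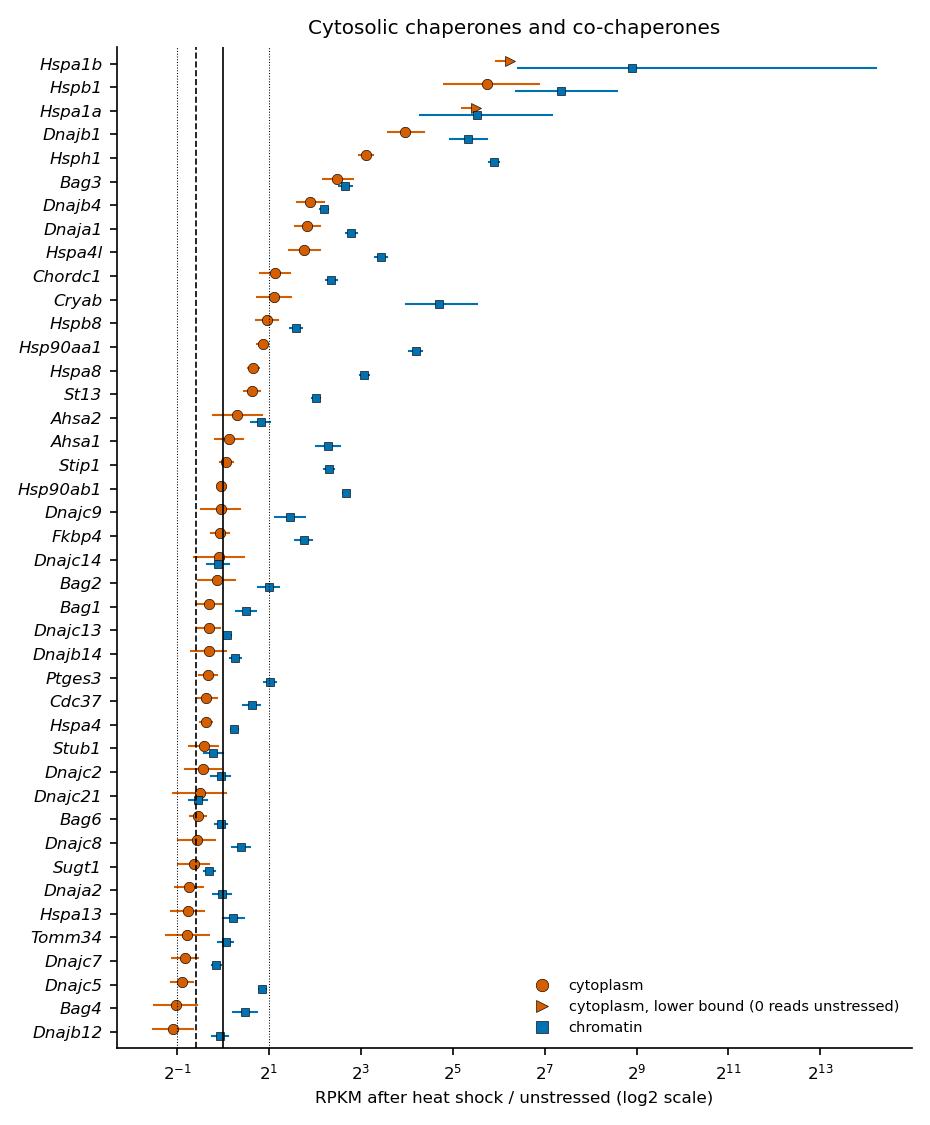
The plot shows, for the 42 kept cytosolic chaperones and co-chaperones, the ratio of RPKM after heat shock to unstressed on a log2 axis, in cytoplasm (circles) and chromatin (squares), with 95% counting intervals. Triangles are lower bounds for genes with 0 reads in unstressed cytoplasm, whose interval has no upper end, the solid line is a ratio of 1, the dashed line the cytoplasmic median of all genes and the dotted lines 2-fold. The squares lie to the right of the circles for 40 of the 42 genes.

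Immediate early genes, which encode transcription factors and phosphatases switched on within minutes of many stimuli, included several of the highest genes 3 h into recovery. Of the 27 in the list, 25 could be named and 17 were kept. Of the 17, 8 (47.1%) reached 2-fold upward and 1 (5.88%) downward, against 5.32% and 18.9% of all genes, and their median log2 ratio was 0.76, against -0.60 for all genes. Egr1, a zinc finger factor, had the largest ratio of the list, from 0.0234 RPKM (1 read) to 4.61 (265 reads), 197-fold with an interval of 35.1 to 7826 that is wide for lack of reads. Atf3, a stress-induced bZIP factor, was listed at 0.0429 RPKM in the unstressed library (17 reads) and 1.70 after heat shock (904 reads), 39.6-fold higher (interval 24.6 to 68.3). Dusp1, a phosphatase that turns off MAP kinases, was listed at 0.617 RPKM in the unstressed library (15 reads) and 17.6 after heat shock (574 reads), 28.5-fold higher (interval 17.1 to 51.3). The AP-1 subunits Jun and Junb were 4.42-fold higher (interval 3.34 to 5.94) and 3.83-fold higher. Ier2, Ier3 and Dusp5 were 7.39-fold, 2.91-fold and 2.75-fold higher. The lower gene was Klf2, at 87 and 30 reads, 3.89-fold lower (interval 2.54 to 6.11). Myc and Fosl2 had ratios of 0.741 and 0.748, above the median of all genes. In chromatin the ratio was above the cytoplasmic one for 7 of the 17, against 75.6% of all genes. Fos itself had too few reads to be kept (4 and 35), as had Fosb (4 and 69), Klf6 (1 and 21), Zfp36 (9 and 53), Egr2 (1 and 9), Egr3 (2 and 2), Nr4a1 (6 and 29) and Btg2 (23 and 33).

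Targets of ATF4, the transcription factor of the integrated stress response, had a median near that of all genes but several higher members. Of 16 kept members 4 were at least 2-fold higher, against 5.32% of all genes. These were Atf3, Chac1, a glutathione-degrading enzyme (2.98-fold), Ddit4, an inhibitor of mTORC1 (2.76-fold), and Vegfa (2.72-fold). Genes for amino acid synthesis and transport had ratios of 0.663 for Asns, 0.645 for Phgdh, 0.612 for Shmt2 and 0.648 for Slc7a5. Atf4 itself was 2.79-fold lower (interval 2.40 to 3.25), at 528 and 254 reads. The list median was -0.61, close to that of all genes, and 1 member, Atf4, passed 2-fold downward but not relative to the median of all genes. In chromatin 10 of 20 kept members were at least 2-fold lower, against 19.1% of all genes kept there.

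Other lists differed in how many genes were at least 2-fold higher, where 5.32% of all genes were so and 18.9% at least 2-fold lower. Of 10 kept targets of YAP and TGF-beta signalling 3 were higher and 1 lower, Crim1 (2.01-fold). The higher ones were Ccn1, a matrix-associated signalling protein, at 409 and 1851 reads (3.37-fold, interval 3.03 to 3.76), Smad7, an inhibitor of the TGF-beta receptor (2.87-fold), and Ankrd1 (2.83-fold). Tnfaip3, an inhibitor of NF-kB signalling, was 3.04-fold higher, while the chemokine gene Cxcl1 and Vcam1, an adhesion molecule, were 3.04-fold and 2.44-fold lower, and the other 6 kept members of that list did not pass 2-fold. Bbc3, which encodes the cell death protein PUMA, was 7.23-fold higher (interval 3.77 to 15.5), with 10 and 97 reads, and was the 1 gene at least 2-fold higher among 9 kept p53 targets, of which Aen (2.15-fold) and Phlda3 (2.06-fold) were at least 2-fold lower. The series measured m6A, and of 15 kept genes for m6A writers, readers and erasers 1 (6.67%) was at least 2-fold higher and 2 (13.3%) at least 2-fold lower, shares near those of all genes. The higher one was Wtap, a subunit of the m6A writer complex, listed at 0.960 RPKM in the unstressed library (205 reads) and 4.24 after heat shock (1216 reads), 4.42-fold higher (interval 3.81 to 5.15). In chromatin Wtap had a ratio of 0.974 (0.896 to 1.06). Mettl14, another subunit, had a cytoplasmic ratio of 0.519, and the lower genes were Igf2bp3, an m6A reader, at 2.79-fold and Fto, an eraser, at 2.00-fold. Relative to the median of all genes, Crim1, Aen, Phlda3, Vcam1, Igf2bp3 and Fto did not pass 2-fold. On that scale Ccn2 and Skil, both in the YAP and TGF-beta list, were at least 2-fold higher (log2 1.49 and 1.23).

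Chaperones and immediate early genes were a minority of the genes with the largest ratios. At least 8-fold higher were 103 genes (1.55%), of which 56 could be named, and 8 of these 56 belonged to the lists of cytosolic chaperones, immediate early genes, ATF4 targets or p53 targets. At least 8-fold lower were 4 genes (0.0602%), all histone genes. The first 15 protein-coding genes by the lower end of the interval were, in order, Hspa1b, Unc93b1, Hspa1a, Egr1, Ankrd60, Hspb1, Cdh22, Atf3, Tcfl5, Dusp1, Cspg5, Clcn2, Ppp4r4, Shh and Tead3. A further 8 genes without a name ranked above the last of these, first ENSMUSG00000079507 with 73 and 2926 reads and ENSMUSG00000101942 with 8 and 483.

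Among these genes Ankrd60, an ankyrin repeat gene, had the most reads. It was listed at 2.21 RPKM in the unstressed library (178 reads) and 80.8 after heat shock (8729 reads), 36.5-fold higher (interval 31.5 to 42.6). Unc93b1, which carries Toll-like receptors to endosomes, was listed at 0.0682 RPKM in the unstressed library (8 reads) and 5.74 after heat shock (904 reads), 84.2-fold higher (interval 42.5 to 196). Cspg5, a chondroitin sulfate proteoglycan of the nervous system, was listed at 0.853 RPKM in the unstressed library (133 reads) and 16.3 after heat shock (3401 reads), 19.0-fold higher (interval 16.02 to 22.83). Clcn2, a chloride channel, went from 0.204 to 4.41 RPKM (21.6-fold), and Shh, a secreted morphogen, from 0.243 to 5.14 RPKM (21.2-fold). Tead3, a partner of YAP, was 22.4-fold higher at 15 and 452 reads, and Ppp4r4, a phosphatase subunit, 34.0-fold at 5 and 228 reads. Tcfl5, a helix-loop-helix factor, had 0 and 112 reads, 27.8-fold higher with the floor of 3 reads, and a lower interval end of 22.2-fold. Cdh22, a cadherin, had 3 and 298 reads (74.0-fold, interval 25.1 to 361). The files hold 1 value per gene, so where along a gene these reads lie, on which strand, and whether they match other loci is not held in them.

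In chromatin these genes differed among themselves. Of the 15, 11 were also at least 2-fold higher in chromatin, against 9.9% of the 6482 genes kept in both fractions, although Ppp4r4 and Tcfl5 had few reads there. Ankrd60 and Shh were 28.8-fold (17.3 to 51.9) and 32.0-fold (10.6 to 158) higher in chromatin, next to 36.5-fold and 21.2-fold in cytoplasm. Unc93b1, Clcn2 and Cspg5 had chromatin ratios of 1.28 (0.854 to 1.94), 1.23 and 1.95. Tead3 was 2.50-fold lower in chromatin (interval 2.05 to 3.06). Among all genes kept in both fractions and at least 2-fold higher in cytoplasm, 121 of 250 were at least 2-fold higher in chromatin as well and 19 at least 2-fold lower. For those at least 8-fold higher these counts were 39 and 2 of 54.

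**Figure D3:**
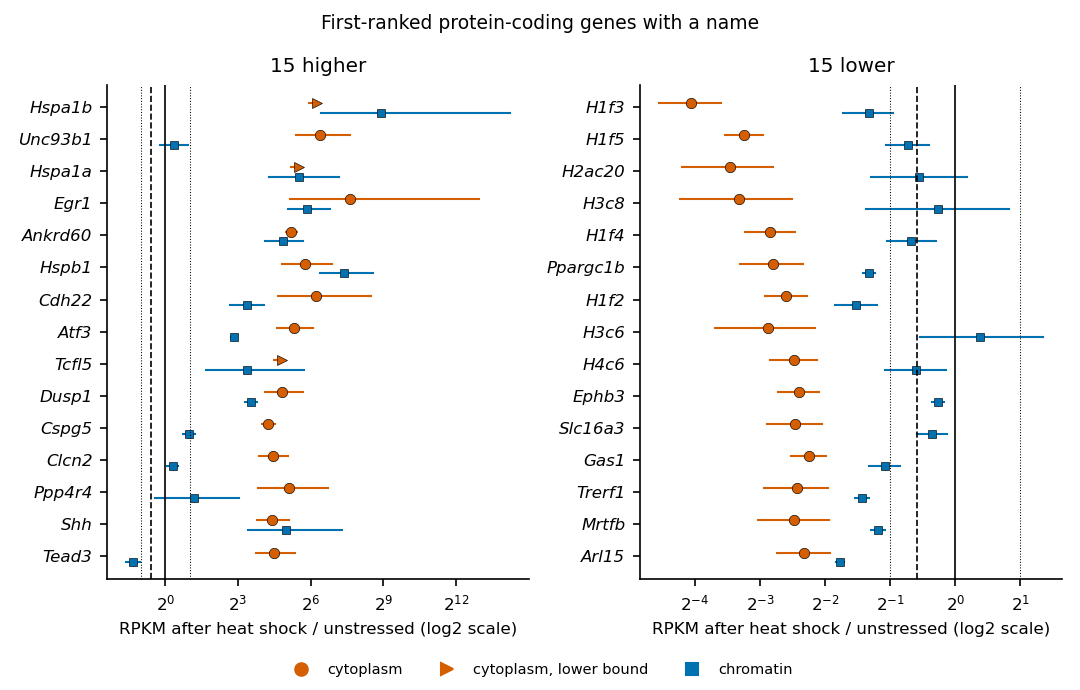
The first 15 higher (left) and 15 lower (right) protein-coding genes with a name are shown by rank, with the ratio of RPKM after heat shock to unstressed on a log2 axis, in cytoplasm (circles, or triangles for lower bounds) and in chromatin (squares), and 95% counting intervals. Solid, dashed and dotted lines mark a ratio of 1, the cytoplasmic median of all genes and 2-fold. The chromatin squares reach 2-fold for 11 of the 15 higher genes and pass 2-fold downward for 7 of the 15 lower ones.

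Replication-dependent histone genes were lower as a group. Of 42 that could be named, 23 were kept, and all 23 had at least 2-fold lower values after heat shock, against 18.9% of all genes. Their median log2 ratio was -2.07, a 4.20-fold lower level, and the range was -4.06 to -1.27. Relative to the median of all genes, 19 of the 23 were at least 2-fold lower, against 2.92% of all genes. The other 19 named members had fewer than 100 reads, and over the 41 members with any read 39 had at least 2-fold lower values and 0 at least 2-fold higher ones. Over the 42 genes the reads were 5774 of the unstressed library and 1563 of the larger heat shock library, a share 4.96-fold (interval 4.69 to 5.25) lower. Copies of these genes are nearly identical, so the split of reads between single members is uncertain, and the sum does not depend on how reads were split within the group.

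Summed by class, the linker histones were lowest. H1f3 was listed at 84.6 RPKM in the unstressed library (522 reads) and 5.07 after heat shock (42 reads), 16.7-fold lower (interval 12.2 to 23.4). H1f5 was listed at 129.5 RPKM in the unstressed library (798 reads) and 13.7 after heat shock (113 reads), 9.48-fold lower (interval 7.78 to 11.6). H1f4 went from 60.3 to 8.41 RPKM (7.17-fold lower) and H1f2 from 34.8 to 5.76 RPKM (6.04-fold lower). The summed reads of the 5 linker genes were 8.63-fold (interval 7.69 to 9.71) lower as a share of the library. The fifth of them, H1f1, had 15 and 11 reads and was not kept (1.83-fold lower, interval 0.786 to 4.41). For the core histones, which form the nucleosome, the summed shares were lower by 5.49-fold (interval 4.65 to 6.53) for H2A, 4.66-fold (interval 4.07 to 5.34) for H3, 3.58-fold (interval 3.00 to 4.29) for H2B and 3.30-fold (interval 3.00 to 3.64) for H4. The interval of the linker genes did not overlap those of any core class, which speaks to counting error in the summed reads only. Single genes of the classes did overlap, as core H2ac20 (11.1-fold lower) differed more than linker H1f5 (9.48-fold). Single core genes among the first 15 lower were H2ac20 (173 and 21 reads, 11.1-fold), H3c8 (104 and 14 reads, 9.97-fold), H3c6 (99 and 18 reads, 7.38-fold) and H4c6 (349 and 84 reads, 5.58-fold). The least lower of the kept genes was H4c1, 2.41-fold lower (interval 1.65 to 3.57). Of the 42 genes, 38 lie on chromosome 13 and 4 on chromosome 3, and 36 and 3 of these were at least 2-fold lower.

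Histone RNA in chromatin was less different. The 42 genes together had 2188 and 1884 chromatin reads, a share 1.24-fold lower (interval 1.16 to 1.31). The linker genes were 2.11-fold lower there, while the chromatin ratios of core H2A, H3, H2B and H4 were 1.16, 1.16, 0.914 and 1.14, each with an interval that held 1. The H2B sum of 620 and 603 reads rested largely on H2bc6, counted over 37383 bp, with 530 and 258 reads. Other H2B genes were mostly higher in chromatin, such as H2bc4 (46 and 133 reads), H2bc3 (8 and 50) and H2bc12 (7 and 48). H2bc7 was not (11 and 8). For the 8 members kept in both fractions the chromatin ratio was above the cytoplasmic one in all 8, as it was for 75.6% of all genes. Histone variants with polyadenylated mRNA, which are made outside S phase, were kept for 9 genes, of which 2 were at least 2-fold lower, and their median of -0.59 was close to that of all genes. These were H2ax, whose protein marks DNA breaks, at 593 and 205 reads (3.88-fold lower), and H1f0 at 288 and 120 reads (3.22-fold). H2ax mRNA exists in a stem-loop and a polyadenylated form. H2az1 and H3f3a had ratios of 0.764 and 0.751.

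Other genes of the cell cycle and of histone mRNA were listed beside them. Of 24 kept genes of DNA replication and licensing 5 were at least 2-fold lower (20.8%, against 18.9% of all genes) and 0 higher, 1 of them, Ung, also relative to the median of all genes, and the median log2 ratio of the list was -0.58. Of 23 kept mitotic genes 1 passed 2-fold downward, Ccnf (4.77-fold), and the median was -0.52. Among 9 kept genes that make or degrade the histone mRNA end, Npat, the co-activator of histone transcription, was 2.46-fold lower and Cpsf3, the nuclease that cuts the mRNA end, 2.02-fold, neither of them past 2-fold relative to that median. Slbp, which binds the stem-loop, had a ratio of 0.598, near the median of all genes.

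**Figure D4:**
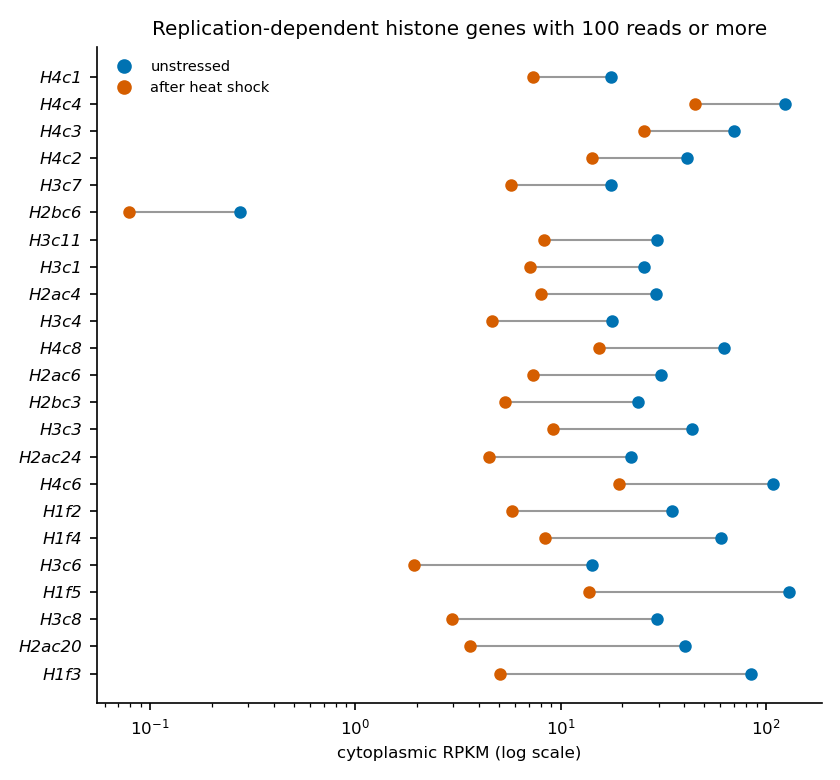
Cytoplasmic RPKM of the 23 kept replication-dependent histone genes is shown on a log axis without stress (blue) and after heat shock (orange), 1 library each, with genes in order of their ratio and the most reduced at the bottom. Every orange point lies left of its blue point, from H1f3 at 84.6 and 5.07 RPKM to H4c1 at 17.7 and 7.33. H2bc6 has the lowest RPKM, which is counted over a span of 37383 bp.

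The remaining genes among the first 15 lower came from no single list. Ppargc1b, a co-activator of mitochondrial genes, was listed at 0.270 RPKM in the unstressed library (229 reads) and 0.0386 after heat shock (44 reads), 6.99-fold lower (interval 5.04 to 9.88). Ephb3, an ephrin receptor, was listed at 2.80 RPKM in the unstressed library (431 reads) and 0.528 after heat shock (109 reads), 5.31-fold lower (interval 4.29 to 6.61). Slc16a3, a lactate transporter, was 5.50-fold lower (interval 4.14 to 7.40) and Gas1, a membrane protein that binds Hedgehog, 4.77-fold lower (interval 3.98 to 5.75). Trerf1, Mrtfb, a co-activator of SRF, and Arl15 were 5.40-fold, 5.55-fold and 5.00-fold lower. Of the 15 lower genes, 7 were also at least 2-fold lower in chromatin and 0 at least 2-fold higher, against 14.1% and 9.9% of genes kept in both fractions. A further 2 genes without a name ranked among them, ENSMUSG00000091383 (148 and 25 reads) and ENSMUSG00000096010 (527 and 144).

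Neat1, the long noncoding RNA that scaffolds nuclear paraspeckles, was the first of the named lower genes that do not code for protein. It was listed at 10.6 RPKM in the unstressed library (1818 reads) and 2.51 after heat shock (581 reads), 4.20-fold lower (interval 3.82 to 4.62), and in chromatin it was 1.54-fold (1.52 to 1.56) higher. Airn was 2.63-fold and Kcnq1ot1 1.56-fold lower in cytoplasm, and Malat1, the nuclear RNA with the most reads of the list, had 5299 and 5873 reads and a ratio of 0.826. Snhg5 was 1.56-fold lower. In glycolysis Hk2, the first enzyme of the pathway in many cultured cells, was 4.08-fold lower (interval 3.25 to 5.16) and the glucose transporter gene Slc2a1 2.64-fold lower, the latter not past 2-fold relative to the median of all genes, Eno2 was 2.87-fold higher, and the other 13 kept members did not pass 2-fold. Of 13 kept genes for SR splicing proteins and their kinases 3 were at least 2-fold lower, Srsf5 (2.78-fold), Srsf6 (2.08-fold) and Srsf10 (2.01-fold). This is 23.1%, against 18.9% of all genes, and 0 were so relative to the median of all genes. Of 14 kept genes of cholesterol synthesis 6 were at least 2-fold lower, led by Sqle, and 0 were so relative to the median of all genes.

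RNA encoded by the mitochondrial genome had ratios above the median of all genes. Of 36 such genes 32 were kept, and their median log2 ratio was 0.33. At least 2-fold higher were 3 and lower 0, against 5.32% and 18.9% of all genes. Relative to the median of all genes, more of the 32 were at least 2-fold higher, from mt-Tk (log2 1.02) to mt-Ts1 (1.74). Of all genes 8.08% were so. The serine tRNA gene mt-Ts1 was 2.20-fold higher (interval 1.91 to 2.55) at 259 and 766 reads, and mt-Ty, for tyrosine, 2.09-fold. The summed tRNA reads made up 1.31-fold more of the library after heat shock and those of the 12 mRNA genes 1.22-fold more, while the 2 ribosomal RNAs, at 87532 and 99835 reads, made up 1.18-fold less. In chromatin the 32 genes had a median log2 ratio of 3.26, and 31 were at least 2-fold higher there, against 9.9% of genes kept in both fractions. Summed over the 36 genes, the mitochondrial share was 0.972-fold in cytoplasm and 3.95-fold in chromatin after heat shock. Mitochondrial RNA is made in mitochondria, and the part of mitochondria in the chromatin pellet was not tested.

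Few genes of the larger housekeeping and matrix lists passed 2-fold, where 5.32% of all genes were at least 2-fold higher and 18.9% at least 2-fold lower. Of 63 kept genes for cytosolic ribosomal proteins 0 passed 2-fold, and their log2 ratios ran from -0.83 to 0.10 with a median of -0.43. Of 18 kept translation factors whose mRNAs carry the same 5′ terminal oligopyrimidine start, 0 passed 2-fold and the median was -0.37. Both medians lay above that of all genes, while that of 17 kept genes for ribosome assembly in the nucleolus was -0.76, with 1 at least 2-fold lower, Wdr12 (2.12-fold). Actb, at 6457 and 6334 reads, had a ratio of 0.731 and the median of 22 kept actin cytoskeleton genes was -0.31. The median of 19 kept collagen and matrix genes was -0.51, with 1 at least 2-fold lower, Timp3 (2.50-fold). The NRF2 targets, which respond to oxidative stress, had a median of -0.59, and Hmox1, a heme-degrading enzyme that is also a heat shock gene in rodents, was the highest of the 11 at 1.09-fold. Of these 11, Srxn1 (2.15-fold) and Mafg (2.11-fold) were at least 2-fold lower and 0 higher. Relative to the median of all genes, Wdr12, Timp3, Srxn1 and Mafg did not pass 2-fold. Of the snoRNA host genes 5 were kept and had a median of -0.64. The metallothionein gene Mt1 had a ratio of 0.953.

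**Figure D5:**
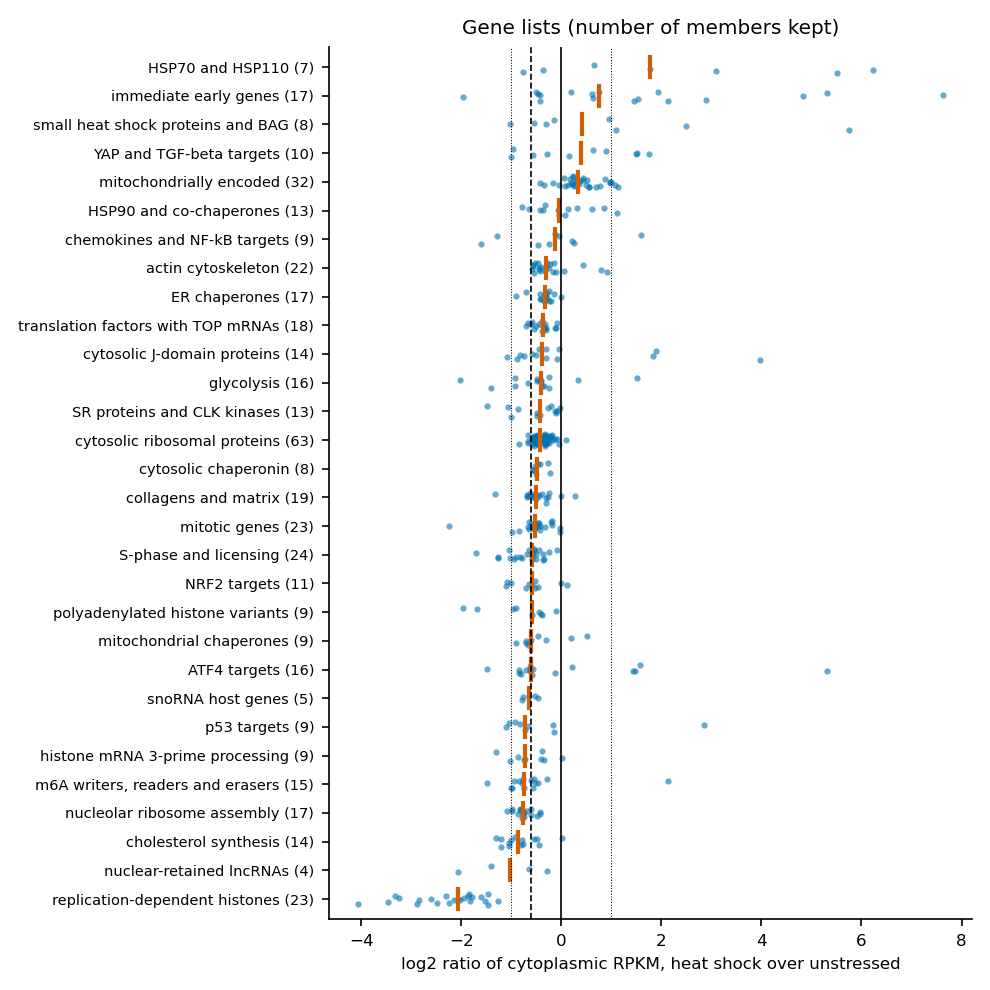
Each blue point is a kept member of the list named at the left, with the number kept in parentheses, placed by its log2 ratio of cytoplasmic RPKM, heat shock over unstressed, and orange bars are list medians. The solid line is a ratio of 1, the dashed line the median of all genes and the dotted lines 2-fold. The HSP70 list, with a median of 1.77, and the replication-dependent histones, with -2.07, stand at the ends, and most others lie near the dashed line.

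The cell type label was checked against its markers. All 14 fibroblast markers could be named, 13 were listed in the unstressed library and 14 after heat shock, with Pdgfrb at 0 reads in the former. The summed level of the 14 was 88.0 RPKM and 59.8 RPKM, led in reads by Fn1 and Col1a1, and 10 of them were kept. Such sums mix genes of unlike span, so they can be compared between libraries but not between lists. Of 7 epithelial markers named, 4 were listed without stress and 6 after it, at 35.8 RPKM and 33.2 RPKM in all, most of it from Krt14, Krt8 and Krt18, with Epcam, Esrp1 and Cldn4 at 0 reads in the unstressed library and Cldn4 at 0 in both. Cdh1 had 68 and 251 reads (2.75-fold). Summed levels of the other lists were 0.0893 RPKM and 0.338 RPKM for 7 immune markers, 0.00750 and 0.0302 for 4 endothelial, 0.00373 and 0.0248 for 5 neural and 0.189 and 0.204 for 5 skeletal muscle markers. None of the immune, endothelial, neural or muscle markers reached 100 reads. The part of epithelial cells in the results was not tested.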

How the data were processed

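RNA of cytoplasm and chromatin was sequenced, with 1 library per fraction and condition. The authors deposited RPKM per gene. Per the submitters' processing notes, they used cutadapt, STAR and the GRCm38 build. Not given in the sources used here are the counter, the annotation, the strand setting and the treatment of reads with several matches. The 2 m6A libraries and 2 input libraries were not used here.

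The RPKM values are whole multiples of what 1 read is worth, which gave reads, library totals and the span each gene was scaled by. Those spans run over the whole gene, introns included. The smallest span that fitted was taken, so for some genes span and reads are 2 or 3 times too small. Names were also kept where the RefSeq span was about 2 or 3 times the recovered one. Ratios are not affected, but such genes can miss the minimum of 100 reads, and their intervals are too wide. Genes with 100 or more reads over both cytoplasmic libraries were kept and called at 2-fold. Exact 95% Clopper-Pearson intervals cover counting error only, since reads were not marked as molecules. A gene with 0 reads has a bound at 3 reads, which leaves out counting error in the other library. Scripts ran in Python 3.11.15 with numpy 2.4.6, pandas 2.3.3, scipy 1.17.1 and matplotlib 3.10.9, and were tested on simulated data.

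Neither the files nor the reference pairs the identifiers with names. Names were therefore written from memory of the identifiers, 922 in all, and 809 of the 903 that could be compared had a span matching RefSeq on GRCm38.p6 (89.6%), against 9.31% when the pairs were shuffled. Names whose spans differed were dropped (82), except 12 kept on the identifier alone. Pairs for the genes at both ends of the ranking, the tolerance on spans and these 12 were chosen after values were seen. If all 82 dropped pairs were wrong, and wrong pairs matched as often as shuffled ones, 1.04% of matched names would be wrong. This figure leaves out the 12. It can be too low within families of like span, such as histone or mitochondrial tRNA genes, whose members the span check cannot tell apart.

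Kept genes were ranked by the interval bound nearest 1. Of those with a name, the text gives the first 15 protein-coding genes and first 5 others in each direction. It also gives members of the gene lists, and at most 2 unnamed identifiers each way. The first 5 named others higher were the mitochondrial tRNA genes mt-Ts1, mt-Tr, mt-Ty, mt-Tt and mt-Tp, and lower Neat1, Airn, Kcnq1ot1, mt-Rnr2 and Snhg5. The higher ones ranked only 304 to 366 of 578 genes with intervals above 1. The lower ones ranked 17, 321, 2851, 2928 and 2958 of 4780 genes with intervals below 1. Genes without a name, whose type is not known, were passed over. Genes, lists and rules were chosen with earlier results of these data known. Alternatives were other scales, pseudocounts and filters on low values. The list of heat shock factors is not reported here in full.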

Additional observations from a re-analysis of the deposited data

How the results depend on the processing

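With 1 library per group no library could be left out. No paired analysis was possible because each group has 1 library and the labels share fewer than 2 replicate numbers. The scale decided how many genes were lower. With the all-gene median set to 0, the counts at least 2-fold higher and lower were 537 and 194, the median log2 ratio 0 and the share of higher genes among those past 2-fold 73.5%. Without the 10 most-read genes in the totals there were 592 lower genes, a median of -0.34 and a share of 41.2%. With both libraries set to the same RPKM sum, these were 2256, -0.82 and 12.5%. A pseudocount lowered the counts, to 136 higher and 61 lower genes (median -0.17, share 69.04%) on the log2(RPKM + 1) scale, and to 358 lower genes (median -0.46, share 43.5%) on the log2(RPKM + 0.1) scale. At 20 or more reads there were 1071 higher and 2365 lower genes (median -0.58, share 31.2%), at 500 or more 106 and 173 (median -0.51, share 38.0%), and with 1 read in each library 2535 and 3225 (median -0.42, share 44.0%). A mean of at least 1 RPKM over 4 libraries left 707 lower genes (median -0.52, share 28.4%). Among protein-coding genes with a name, outside mitochondria, 94 were higher and 111 lower (median -0.44, share 45.9%). Setting the median to 0 turned the sign of 240 of 498 named genes and of 19 of 34 list medians. Of 114 named genes past 2-fold, 80 stayed past it with the median set to 0, all 44 higher ones among them and 36 of 70 lower ones, and 65 with log2(RPKM + 1). Reads limit genes such as Egr1 and Cdh22, whose unstressed values rest on 1 and 3 reads.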

Other observations

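Of the 22386 genes listed in cytoplasm, 5568 were listed after heat shock alone and 1219 without stress alone. The former had a median of 1 read and a highest of 304 (Hspa1b), and 3 of them had 100 or more. The median log2 ratio was -0.68 among the 2240 genes with 100 to 199 reads over both libraries and -0.34 among the 237 with 2000 or more, and genes at least 2-fold lower were 25.6% and 5.91% of these.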
